A study of Homo sapiens with 9 samples.

Results

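The IL-6 receptor, STAT3 and SOCS3 axis was followed across HT29 colon cancer cells through 10 genes, which were matched by exact gene name in each of 3 deposited tables. Of the 10 genes, 8 were listed in at least 1 table, and IL6R and SERPINA3 were listed in all 3. OSMR and LIFR were listed in none, so no level can be given for either of them. HT29 is an established human colorectal adenocarcinoma line, and the study asked how its transcriptome responds to conditioned medium (CM) from a colorectal cancer microphysiological system (CRC-MPS) that holds epiploic adipose tissue (EPAT). RNA was sequenced in 9 libraries, 3 in each of 3 groups. Control cells were serum starved for 24 h. A second group received for 24 h the CM of EPAT-derived stromal cells (ESC) alone, and the last group received another CM for 24 h. Both the study and the sample titles name the CRC-MPS as the source of this last CM, which the labels also describe as coming from adipose tissue. By the study's methods the CRC-MPS also contained HT29-GFP cancer cells, the adipose tissue came from obese donors, and the source cultures grew in medium with fetal bovine serum. Effects of serum and of the CM itself therefore cannot be told apart in the comparisons with control. As the other CM came from ESC alone, effects of adipose tissue and of cancer cells cannot be told apart between both CM. All groups were 1 cell line, and the labels number the libraries of a group as biological replicates without naming separate cultures or tissue donors, so p-values measure the spread between these libraries only. In bulk RNA, fewer cells of a type and less RNA per cell cannot be told apart.

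Interleukin-6 binds its own receptor chain, IL6R, and the complex recruits the signal-transducing chain gp130, encoded by IL6ST. OSMR and LIFR are the partner chains through which oncostatin M and leukemia inhibitory factor use the same gp130. Janus kinases such as JAK1 then phosphorylate STAT3, a transcription factor that is kept latent in the cytoplasm. SOCS3 is induced by STAT3 and binds gp130 and JAK1 to shut the signal off, while SERPINA3, PIM1 and BCL3 are other genes known to respond to this pathway. In the intestinal epithelium IL-6 and STAT3 are known for their part in repair after injury and in colitis-associated tumor growth.

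Upstream sequence is shown for SOCS3 and SERPINA3 because these were the members that passed the test between both CM. Capitals mark matches to TTNNNNNAA, a loose form of the palindromic STAT site, and both sequences are given 5′ to 3′ on the strand of the gene from RefSeq on GRCh38.p14.
SERPINA3: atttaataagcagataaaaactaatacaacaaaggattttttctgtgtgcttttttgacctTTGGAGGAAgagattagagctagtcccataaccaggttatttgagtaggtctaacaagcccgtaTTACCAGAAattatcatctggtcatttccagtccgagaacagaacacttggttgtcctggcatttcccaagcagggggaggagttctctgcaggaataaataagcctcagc
SOCS3: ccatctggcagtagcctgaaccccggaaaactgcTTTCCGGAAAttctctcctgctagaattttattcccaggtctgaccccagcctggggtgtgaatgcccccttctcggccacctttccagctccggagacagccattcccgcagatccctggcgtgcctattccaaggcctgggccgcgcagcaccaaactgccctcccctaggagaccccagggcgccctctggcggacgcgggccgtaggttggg
The SERPINA3 stretch covers chr14:94612141-94612376 on the plus strand and ends just before the gene's start in GENCODE release 29. The SOCS3 stretch covers chr17:78360926-78361175 on the minus strand and lies before a RefSeq start that is 848 bases upstream of the GENCODE start. In SOCS3 the capitals hold a pair of overlapping matches. RefSeq gives 2 windows for SOCS3, and the other held no match to any form searched and is not shown. That window, chr17:78359668-78359917, lies inside the gene, downstream of the GENCODE start. The bases directly before the GENCODE start of SOCS3 are in neither window and were not searched. Of the 3 matches in the SERPINA3 window, 2 are shown and the other lies past the end of the printed stretch. Over the 250 bases before each RefSeq start, searched on both strands, the loose form was found in 49% of 35116 windows and in 10 of 15 windows of the members, representing 8 of 10 genes. The strict form TTCNNNGAA was found in 6.57% of all windows and in 2 of the members' windows, both of LIFR. A form of the NF-kB site, written as GGG, any 3 bases and then TTCC, was found in 5.67% of all windows and in none of the 15. These matches describe letters in a window and are not evidence of binding.

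Each deposited list held only genes whose p in the authors' own test was under 0.05, so a gene that is not listed need not be at 0. The table that set both CM against each other listed 2835 genes, whereas control was compared over 10019 genes with CRC-MPS CM and over 10007 genes with ESC CM. Levels were taken as TPM, the usual length-corrected share of all transcripts that does not keep the read depth, which is therefore unknown. Libraries of the same group correlated at 0.9913 to 0.9974. Of 11 colon epithelial markers 10 had a value in every library, from CDX2 and CEACAM5 at no more than 11.9 TPM to KRT8 at 3873 to 5815 TPM. Their summed level, most of it KRT8 and KRT18, was 13089 to 14452 TPM in control, 10494 to 11040 TPM with ESC CM and 9362 to 10830 TPM with CRC-MPS CM. CDH1, CDX2, KRT19, KRT20 and LGALS4 were called lower with either CM against control, while CEACAM5 was called higher with CRC-MPS CM against control and against ESC CM, and CDX1 was called higher with ESC CM against control. Among markers of other cells, values in all 9 libraries were listed for 1 of 6 adipocyte genes, 0 of 9 stromal genes, 2 of 6 leukocyte genes and 0 of 3 endothelial genes. The adipocyte gene was CIDEC, at 2.99 to 4.35 TPM in control, 0.655 to 1.90 TPM with ESC CM and 0.937 to 1.36 TPM with CRC-MPS CM, and it was called lower with either CM. Of the leukocyte genes, CD68 was called lower with either CM, at 9.09 ± 1.66 TPM with ESC CM and 10.9 ± 0.370 TPM with CRC-MPS CM, when every control library was at or above 22.1 TPM. LYZ was at 1667 to 2230 TPM in all libraries, and CD163 was called higher with CRC-MPS CM at 1.14 ± 0.719 against 0.163 ± 0.113 TPM in control (SD, n = 3, limma adjusted p = 0.0303). The endothelial gene VWF was called lower with ESC CM at 0.0121 ± 0.00591 against 0.165 ± 0.0274 TPM in control (limma adjusted p = 0.0189). No marker of these other cells was listed between both CM, and the part of other cells in the results was not tested.

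At the top of the pathway, IL6R fell in both CM. The gene lies on chromosome 1 at 154405193 to 154469450 (GRCh38, GENCODE release 29, as for all coordinates of genes here). Its level was 8.28, 12.7 and 9.89 TPM in the control libraries, 1.70, 1.28 and 1.03 TPM with ESC CM, and 1.35, 2.81 and 2.71 TPM with CRC-MPS CM. Every control library lay above every CM library, and the ranges of both CM overlapped through replicate 1 of CRC-MPS CM. With ESC CM the mean was 7.66-fold lower than in control, a difference of -2.26 ± 0.161 (SE) in log2(TPM + 1) with an adjusted p of 7.65e-05 by limma (n = 3). With CRC-MPS CM it was 4.49-fold lower, a difference of -1.79 ± 0.211 with a limma adjusted p of 0.000363. Between both CM the ratio of means was 1.71 in favor of CRC-MPS CM, but the limma adjusted p was 0.532 and the 95% interval of the difference ran from 0.03 to 0.91. Here and below, the intervals, unlike the adjusted p, take no account of the number of genes tested. By the adjusted p, the means of the CM groups were not separated.

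The partner chain gp130 passed the test in no comparison. IL6ST (chromosome 5, 55935095 to 55994993, minus strand) was at 29.2, 29.5 and 36.7 TPM in control, 30.5, 24.7 and 24.9 TPM with ESC CM, and 34.3, 38.0 and 32.7 TPM with CRC-MPS CM. All CRC-MPS CM libraries lay above all ESC CM libraries, while the control libraries overlapped with both. The difference between both CM was 0.37 ± 0.103 in log2(TPM + 1), a ratio of 1.30, and missed the threshold with a limma adjusted p of 0.267. For ESC CM against control the difference was -0.24 ± 0.119 with a limma adjusted p of 0.169, and the gene was not listed for CRC-MPS CM against control. The ratio of IL6ST to IL6R within a library was 2.33 to 3.71 in control, 17.9 to 24.2 with ESC CM and 12.1 to 25.5 with CRC-MPS CM. Because IL6ST was not listed in every table, these ratios combine libraries across tables and carry no test.

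**Figure D1:**
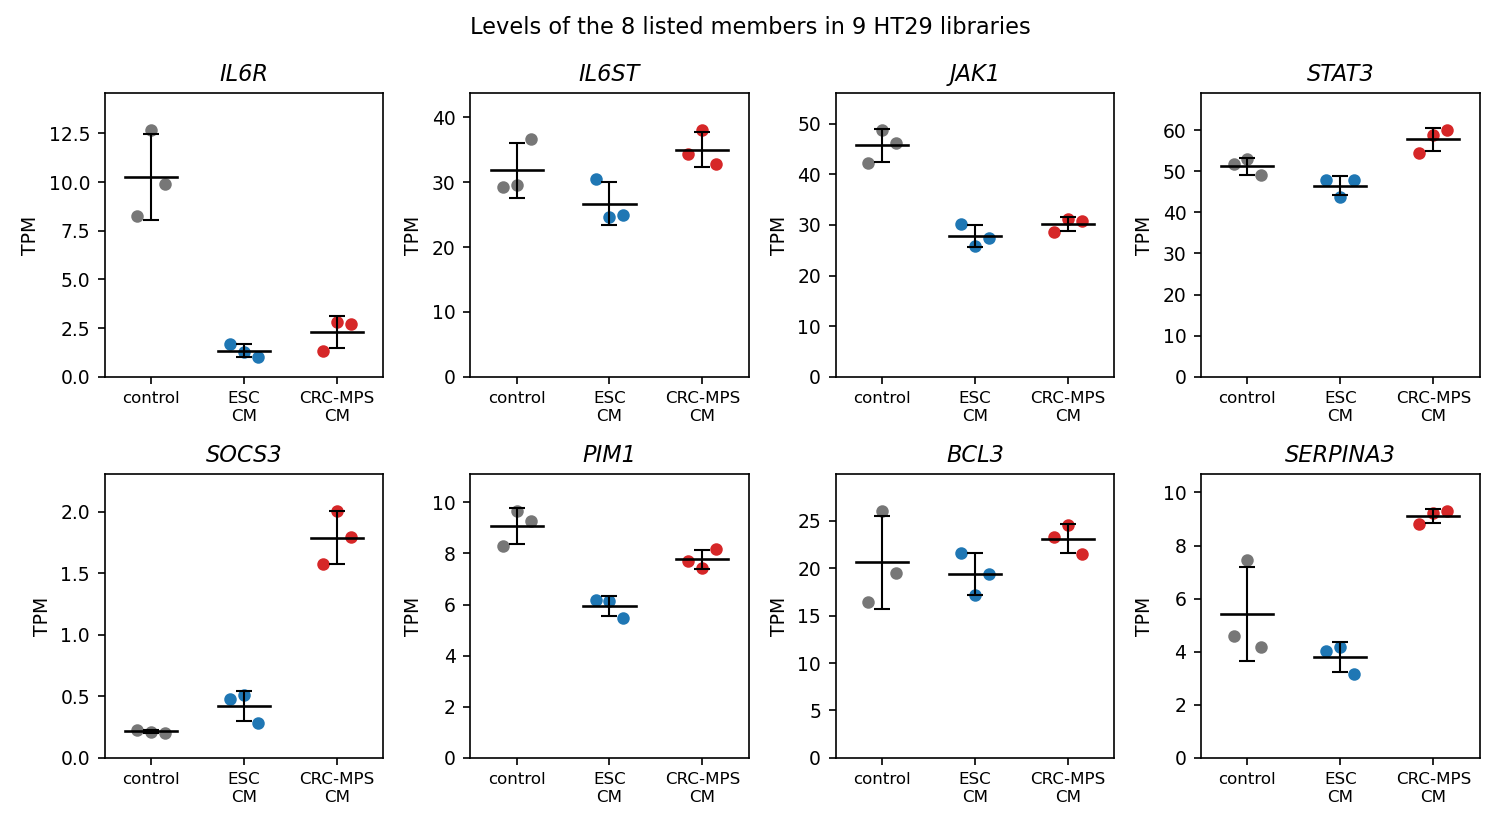
TPM of each of the 8 listed members (1 panel a gene, vertical axis from 0) in 9 HT29 libraries, shown by group. Points are libraries, long bars are means and whiskers are SD (n = 3). SOCS3 was at 1.57 to 2.00 TPM with CRC-MPS CM and at no more than 0.506 TPM in any other library, whereas IL6R was at 8.28 to 12.7 TPM in control and at no more than 2.81 TPM with either CM.

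Downstream of the receptor, JAK1 fell with either CM, and STAT3 passed no test. JAK1, the kinase that pairs with gp130 (chromosome 1, 64833229 to 64966504, minus strand), was at 42.3, 48.7 and 46.1 TPM in control. It was at 30.2, 25.8 and 27.5 TPM with ESC CM and at 28.7, 31.1 and 30.8 TPM with CRC-MPS CM, so that the control libraries stood clear of 6 CM libraries that overlapped with each other. The mean was 1.64-fold lower with ESC CM (-0.69 ± 0.0839 in log2(TPM + 1), limma adjusted p = 0.000566). It was 1.51-fold lower with CRC-MPS CM (-0.58 ± 0.0796, limma adjusted p = 0.000744), only just past the 1.5-fold limit used for a call. The ratio fell under this limit without replicate 1 of CRC-MPS CM (1.48-fold lower) and without control replicate 2 (1.46-fold lower), while the adjusted p stayed under 0.05. JAK1 was not listed between both CM.

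STAT3 (chromosome 17, 42313324 to 42388568, minus strand) was at 51.7, 53.0 and 49.0 TPM in control, 47.8, 43.7 and 47.9 TPM with ESC CM and 54.4, 58.8 and 59.9 TPM with CRC-MPS CM. The 3 groups did not overlap, in the order ESC CM, control, CRC-MPS CM, but the steps were small. Between both CM the ratio was 1.24 and the difference 0.30 ± 0.0731 in log2(TPM + 1), with a limma adjusted p of 0.194 and a 95% interval of 0.13 to 0.47. Against control the ratio with CRC-MPS CM was 1.13 with a limma adjusted p of 0.114. STAT3 was not listed for ESC CM against control. STAT3 activity depends on phosphorylation, which RNA levels do not measure. The within-library ratio of STAT3 to JAK1 was 1.06 to 1.22 in control, 1.58 to 1.74 with ESC CM and 1.89 to 1.95 with CRC-MPS CM. Like those of IL6ST to IL6R, these ratios combine libraries across tables and carry no test.

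SOCS3, the feedback inhibitor (chromosome 17, 78356778 to 78360077, minus strand), rose with CRC-MPS CM. Its level was 0.227, 0.212 and 0.204 TPM in control, 0.475, 0.506 and 0.282 TPM with ESC CM, and 1.57, 2.00 and 1.79 TPM with CRC-MPS CM. No 2 groups overlapped. Mean SOCS3 was 8.36-fold higher with CRC-MPS CM than in control, a difference of 1.20 ± 0.0783 in log2(TPM + 1) with a limma adjusted p of 4.24e-05. It was 4.23-fold higher than with ESC CM, a difference of 0.97 ± 0.0910 with a limma adjusted p of 0.0101. On this scale a value of 1 TPM is added before the logarithm, which understates changes of a gene as low as SOCS3, and the log2 ratios of the means were 3.06 and 2.08. SOCS3 was not listed for ESC CM against control, so the step from 0.214 ± 0.0116 (SD) to 0.421 ± 0.121 TPM was not tested.

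The rise of SOCS3 was large in proportion and small in transcripts. Among 9551 genes with a value in all libraries its level stood at percentile 1.32 in control, 5.38 after ESC CM and 13.5 after CRC-MPS CM. The authors' mean normalized count of SOCS3 was 54.4 over the libraries of both CM, against a median of 1457.04 for the genes of that table. By ratio of means SOCS3 stood at percentile 99.0 among the genes listed between both CM and at 99.2 among those listed for CRC-MPS CM against control. The ratio of STAT3 to SOCS3 within a library went from 228 to 249.8 in control to 86.3 to 170 with ESC CM and 29.4 to 34.6 with CRC-MPS CM. It also combines libraries across tables and carries no test. The call between both CM was lost without replicate 2 of CRC-MPS CM (limma adjusted p = 0.0520) and without replicate 3 (0.0739), and adjusted p ranged from 0.00144 to 0.0836 over all alternatives.

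SERPINA3 encodes alpha-1-antichymotrypsin, an acute phase serine protease inhibitor (chromosome 14, 94612377 to 94624055, plus strand). It was at 4.60, 7.44 and 4.19 TPM in control, 4.04, 4.18 and 3.15 TPM with ESC CM and 8.81, 9.23 and 9.29 TPM with CRC-MPS CM. The CRC-MPS CM libraries were the highest and lay close together, with an SD of 0.258 TPM against 1.77 TPM in control, where replicate 2 stood above the other two. SERPINA3 rose 2.40-fold between ESC CM and CRC-MPS CM, a difference of 1.08 ± 0.0943 in log2(TPM + 1) with a limma adjusted p of 0.00779. It was 1.68-fold higher than in control (0.69 ± 0.170, limma adjusted p = 0.0122). With ESC CM the ratio to control was 0.703 and the limma adjusted p 0.164, with a 95% interval from -0.83 to 0.05. Without replicate 3 of CRC-MPS CM the adjusted p between both CM was 0.0590, and it ranged from 0.00110 to 0.0590 over the alternatives.

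PIM1, a serine/threonine kinase (chromosome 6, 37170203 to 37175426, plus strand), fell with ESC CM. Its level was 8.30, 9.65 and 9.26 TPM in control, 6.19, 6.13 and 5.49 TPM with ESC CM and 7.72, 7.42 and 8.18 TPM with CRC-MPS CM, with no overlap between groups. The fall was 1.53-fold (-0.54 ± 0.0766 in log2(TPM + 1), limma adjusted p = 0.00114). Without replicate 3 of ESC CM it was 1.47-fold lower and without control replicate 2 1.48-fold lower, under the limit for a call. Between both CM the ratio was 1.31 and the difference 0.34 ± 0.0729, with a limma adjusted p of 0.144. PIM1 was not listed for CRC-MPS CM against control.

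BCL3, a nuclear I kappa B protein that binds NF-kB subunits (chromosome 19, 44747705 to 44760044, plus strand), showed no call. It was at 16.4, 26.0 and 19.5 TPM in control, 21.6, 17.2 and 19.4 TPM with ESC CM and 23.3, 24.6 and 21.5 TPM with CRC-MPS CM, and the groups overlapped. The ratio was 1.19 between both CM (limma adjusted p = 0.503) and 1.12 for CRC-MPS CM against control (limma adjusted p = 0.565). Without the highest control library, replicate 2, the latter reached a limma adjusted p of 0.0406, with a difference of 0.35 in log2(TPM + 1).

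**Figure D2:**
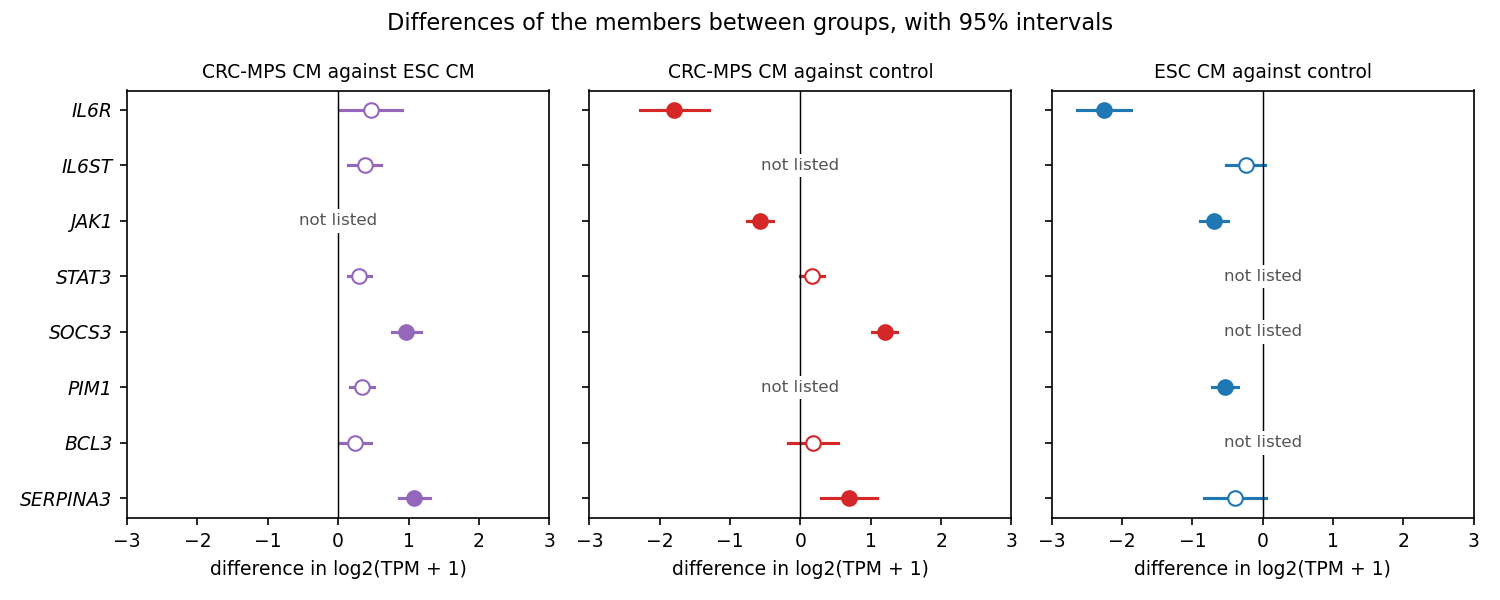
Differences in log2(TPM + 1) of the members (horizontal axis) in the 3 comparisons, with points for the estimates and lines for 95% intervals from limma (n = 3 a group). The intervals are not adjusted for the number of genes tested. Filled points passed an adjusted p of 0.05, and all of them also had a 1.5-fold ratio of means. The words "not listed" mark a gene that the table left out. SOCS3 and SERPINA3 are filled to the right of 0 in both comparisons with CRC-MPS CM, and IL6R is filled to the left of 0 in both comparisons with control.

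The 7 members listed between both CM all had the higher mean with CRC-MPS CM, where 56.1% of all listed genes did so. Members were chosen with earlier results of these data known, so shares of members beside those of all genes are a description only. SOCS3 and SERPINA3 were called, which requires an adjusted p under 0.05 by limma and a ratio of means over 1.5. Of all 2835 genes listed there, 1.45% were called, of which most were higher (1.13% of genes) and few lower (0.317%). The groups did not overlap for 5 of the 7, against 63.6% of all listed genes, so separation alone was common in a table already selected on p. The median log2 ratio of the 7 was 0.393, and that of all listed genes was 0.1532.

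For CRC-MPS CM against control 6 members were listed, and 2 were called higher (SOCS3, SERPINA3) and 2 lower (IL6R, JAK1). Over all genes listed there, 49.2% were called, 23.7% higher and 25.5% lower, so a share of called members at this level is near the background. For ESC CM against control 5 members were listed and 3 were called, all lower (IL6R, JAK1 and PIM1). Over all genes listed there, 46.5% were called, 20.7% higher and 25.8% lower. The groups did not overlap for 89.4% and 90.6% of the genes in these tables. The comparisons with control share the 3 control libraries. An exact permutation test on 3 libraries a group has 0.1 as its smallest two-sided p, which is above the threshold.

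**Figure D3:**
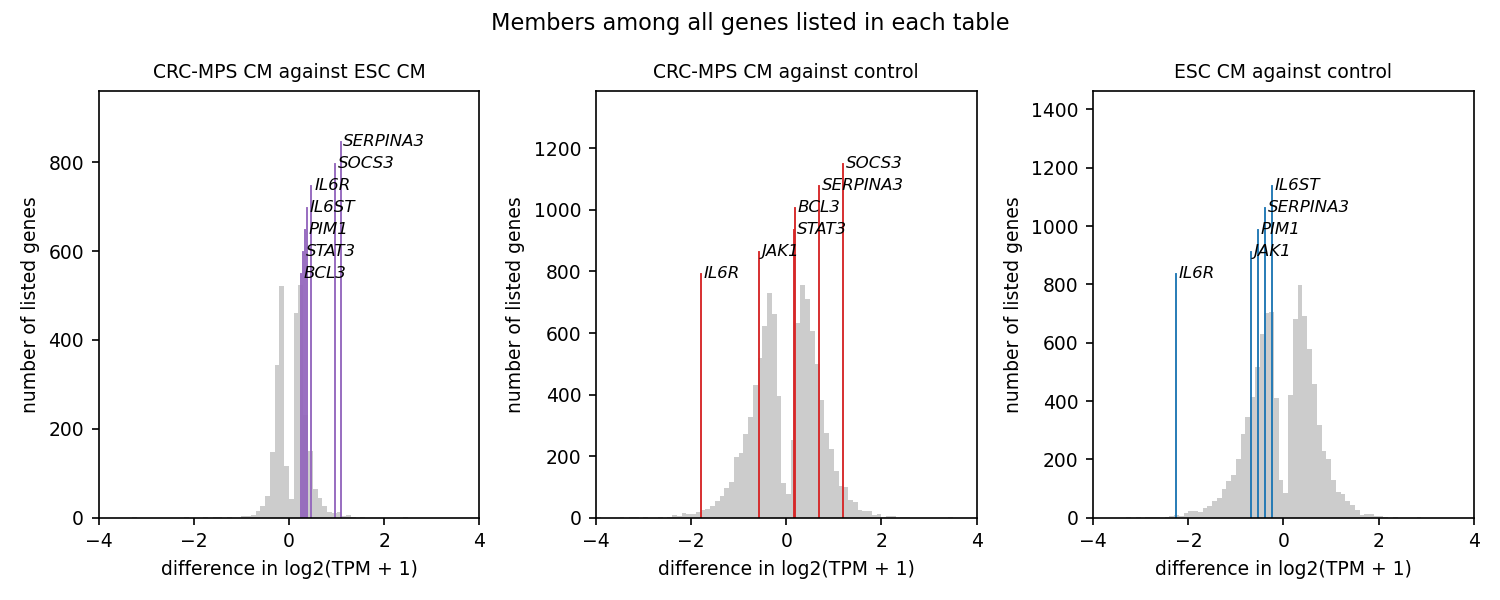
Distribution of the difference in log2(TPM + 1) over all genes listed in each table (grey bars, number of genes per bin), with vertical lines at the listed members. The gap near 0 reflects that the tables hold only genes with p under 0.05 in the authors' test. SERPINA3 and SOCS3 lie in the right tail between both CM, and IL6R lies in the left tail in both comparisons with control.

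Other genes of the pathway were followed in 7 lists of 122 genes, chosen like the members with earlier results of these data known. Between both CM 36 of them were listed and 32 had the higher mean with CRC-MPS CM, with a median log2 ratio of 0.3049. None was called by limma, while at an unadjusted p under 0.05 there were 27 higher and 1 lower, where the same limit took 59.5% of all listed genes. The 5 genes past a 1.5-fold ratio of means are named here after their values were seen. All had higher means with CRC-MPS CM: KLF4, an epithelial transcription factor, at 14.8 ± 2.02 against 7.89 ± 1.47 TPM (SD, n = 3, limma adjusted p = 0.0795), ICAM1, an adhesion molecule, at 6.07 ± 0.663 against 3.68 ± 0.173 TPM (limma adjusted p = 0.0514, and 0.0374 without replicate 1 of CRC-MPS CM), and complement factor B (CFB) at 4.80 ± 1.39 against 2.69 ± 0.378 TPM (limma adjusted p = 0.233). IL1R1, the interleukin-1 receptor, was at 0.920 ± 0.233 against 0.458 ± 0.0568 TPM (limma adjusted p = 0.204). IL20RB, a receptor chain for interleukins of the IL-10 family, was at 5.60 ± 0.617 against 3.62 ± 1.48 TPM (limma adjusted p = 0.526).

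With CRC-MPS CM 65 of the 122 genes were listed, of which 8 were called higher and 20 lower, and with ESC CM 62 were listed, of which 3 were called higher and 27 lower. Of the genes listed with CRC-MPS CM, 12.3% were thus called higher and 30.8% lower, against 23.7% and 25.5% of all listed genes. With ESC CM it is 4.84% higher and 43.5% lower, against 20.7% and 25.8%. The median log2 ratio was -0.3532 and -0.5516, against -0.01 and -0.06 over all listed genes.

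Among ligands, IL11 fell with CRC-MPS CM to 0.998 ± 0.170 TPM from 2.22 ± 0.608 TPM (SD, n = 3, limma adjusted p = 0.00655). CLCF1, another ligand of the family, fell with ESC CM to 18.3 ± 2.84 TPM from 28.3 ± 3.40 TPM (limma adjusted p = 0.00765), but by under 1.5-fold without replicate 3 of ESC CM (1.43) or control replicate 2 (1.46). The list of 12 ligands had 3 and 2 listed genes in these tables, and no further one was called. Of the receptors that couple to STAT3, 4 of 8 listed were called lower with CRC-MPS CM and 5 of 7 with ESC CM, and none higher, where 25.5% and 25.8% of all listed genes were called lower. Of those called, IL27RA and IL11RA were low and lost the call in both comparisons when single libraries were left out, with limma adjusted p of 0.0501 to 0.108. IL22RA1, the receptor chain for interleukin-22 in epithelium, fell with CRC-MPS CM to 22.0 ± 1.96 TPM from 47.4 ± 2.48 TPM (limma adjusted p = 7.50e-05). IL10RB, the chain it pairs with, fell to 8.96 ± 0.393 TPM from 16.6 ± 1.10 TPM (limma adjusted p = 0.000132). Both also fell with ESC CM, IL22RA1 by 1.83-fold and IL10RB by 1.65-fold.

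The other Janus kinases and STAT factors were split in the same way with either CM, with 1 called higher and 4 lower of 7 listed. That was 14.3% called higher and 57.1% lower. Of all genes listed, 23.7% were called higher and 25.5% lower with CRC-MPS CM, and 20.7% and 25.8% with ESC CM. STAT5A fell with CRC-MPS CM to 1.27 ± 0.00945 TPM from 5.07 ± 0.754 TPM (limma adjusted p = 5.04e-05), and STAT5B fell to 7.06 ± 0.634 TPM from 15.1 ± 1.02 TPM (0.000107). With ESC CM they fell 3.28-fold and 2.03-fold. The kinase TYK2 was called higher, and with ESC CM it was at 41.3 ± 2.40 TPM against 25.1 ± 3.17 TPM (limma adjusted p = 0.000990). Unlike SOCS3, the inhibitor CISH fell with CRC-MPS CM to 0.383 ± 0.162 TPM from 0.931 ± 0.0914 TPM (limma adjusted p = 0.00466). SOCS4 rose with CRC-MPS CM to 18.6 ± 1.52 TPM from 9.89 ± 1.70 TPM (limma adjusted p = 0.000876). With ESC CM, CISH was 2.02-fold lower and SOCS4 1.67-fold higher, and both were called. Of 12 listed inhibitors 1 was called higher and 1 lower with CRC-MPS CM, and 1 higher and 2 lower with ESC CM. The shares were 8.33% each way with CRC-MPS CM, and 8.33% higher and 16.7% lower with ESC CM, all below those of all listed genes. PTPRK, a receptor phosphatase and the other gene called lower with ESC CM, was 1.51-fold lower, and 1.48-fold lower without ESC CM replicate 3 or without control replicate 3, which is under the limit for a call.

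Few other acute phase genes were listed, and the difference between both CM in their calls was not tested. Of 27 in the list, 6 were listed for CRC-MPS CM against control, with 2 called higher (C4BPA, CP) and 2 lower (TTR, AGT), and 5 for ESC CM against control, with 4 called lower. That was 33.3% each way with CRC-MPS CM, against 23.7% higher and 25.5% lower of all genes listed there. With ESC CM 80% were called lower, against 25.8% of all listed genes. Transthyretin (TTR), which is known to fall in the liver's acute phase response, fell with CRC-MPS CM to 2.34 ± 0.405 TPM from 30.6 ± 4.24 TPM (limma adjusted p = 1.76e-05) and was 8.63-fold lower with ESC CM. Angiotensinogen (AGT), which is known to rise in that response, fell as well, to 0.927 ± 0.271 TPM from 3.80 ± 0.671 TPM with CRC-MPS CM (limma adjusted p = 0.000214) and 4.15-fold with ESC CM. C4BPA, a complement regulator, rose with CRC-MPS CM to 1.70 ± 0.235 TPM from 0.814 ± 0.207 TPM (limma adjusted p = 0.00299). Ceruloplasmin (CP) was at 0.821 ± 0.189 against 0.355 ± 0.182 TPM (limma adjusted p = 0.0203), and its call was lost without CRC-MPS CM replicate 1 or 2 or control replicate 1 or 3 (limma adjusted p of 0.0645 to 0.0714), which leaves 1 gene called higher. CFB fell with ESC CM to 2.69 ± 0.374 TPM from 6.47 ± 0.604 TPM (limma adjusted p = 0.000196). LCN2, an iron-siderophore binding protein, was called lower with ESC CM at 209 ± 18.5 against 323 ± 84.6 TPM (limma adjusted p = 0.0457), although its groups overlapped. Without 1 of 5 of the 6 libraries, all but control replicate 1, this call was lost, with a limma adjusted p of 0.0655 to 0.154.

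Of 28 STAT3 targets outside the acute phase, 20 were listed in each comparison with control. With CRC-MPS CM 3 were called higher and 6 lower, and with ESC CM 1 was called higher and 9 lower. For CRC-MPS CM that was 15% higher and 30% lower, against 23.7% and 25.5% of all listed genes. For ESC CM it was 5% higher and 45% lower, against 20.7% and 25.8%. BIRC5, which encodes survivin, rose with CRC-MPS CM to 79.9 ± 4.46 TPM from 34.0 ± 4.54 TPM (limma adjusted p = 0.000110), a 2.35-fold change, and was 2.58-fold higher with ESC CM (8.62e-05). FOS, a subunit of the AP-1 factor, fell with CRC-MPS CM to 20.1 ± 1.10 TPM from 44.6 ± 3.87 TPM (limma adjusted p = 7.00e-05), which is 2.21-fold, and fell 2.56-fold with ESC CM (0.000143). KLF4 fell with ESC CM to 7.91 ± 1.48 TPM from 21.2 ± 3.54 TPM (limma adjusted p = 0.000575). Of the NF-kB genes that partner with BCL3, 9 were listed in each of these tables, with 1 called higher and 2 lower with CRC-MPS CM and 0 higher and 2 lower with ESC CM. The share called higher was 11.1% with CRC-MPS CM, against 23.7% of all listed genes, and 0% with ESC CM, against 20.7%. That called lower was 22.2% with either CM, near the 25.5% and 25.8% of all listed genes. RELB fell to 9.92 ± 1.16 TPM from 25.9 ± 1.20 TPM with CRC-MPS CM (limma adjusted p = 5.25e-05), which is 2.62-fold, and fell 3.13-fold with ESC CM (3.32e-05). NFKB2 was the other gene called lower, 1.56-fold with CRC-MPS CM and 1.73-fold with ESC CM, and was 1.48-fold lower without CRC-MPS CM replicate 2, under the limit for a call.

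**Figure D4:**
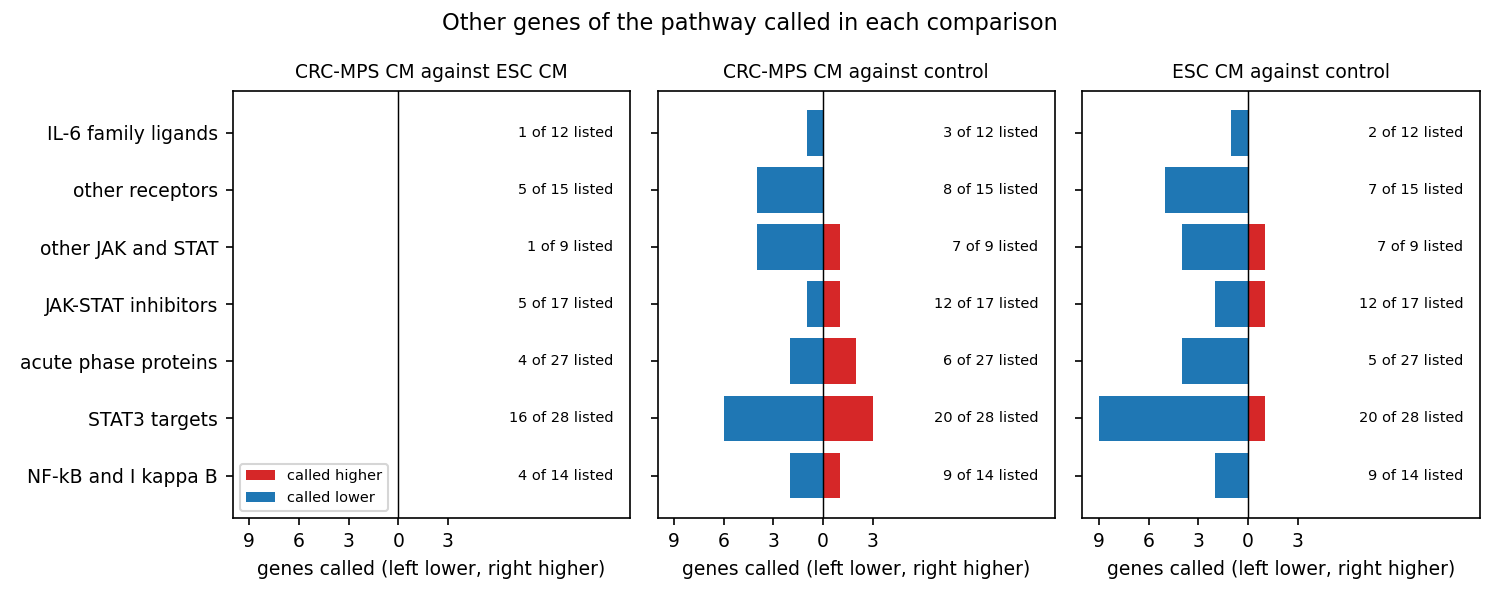
Number of other pathway genes called lower (left of 0) and higher (right of 0) in each of 7 lists, for the 3 comparisons. The number of listed genes stands at the right of each panel. Between both CM no gene was called, and against control 8 were called higher and 20 lower with CRC-MPS CM, and 3 higher and 27 lower with ESC CM.

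The genes most like the members in their level over the 9 libraries were ranked by Pearson's r of log2(TPM + 1), among genes with a mean of at least 1 TPM. These correlations mostly carry the difference between 3 groups and are a description. For SOCS3, out of 8816 genes, the closest was PARD6B, a polarity protein (r = 0.976), followed by LURAP1L (0.967), the aldose reductase AKR1B1 (0.962), OSTF1 (0.961) and DPYD (0.961), the enzyme that degrades pyrimidines. AKR1B1 came nearest to SOCS3 in size, at 0.405 TPM in control, 0.777 TPM with ESC CM and 2.53 TPM with CRC-MPS CM. For SERPINA3, out of 8815 genes, they included FOSL1, an AP-1 subunit (r = 0.975), GPAT3 (0.943), the laminin chain LAMC1 (0.940) and HIST1H1C (0.929). FOSL1 was at 43.0, 38.5 and 52.0 TPM in the same order of groups.

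For IL6R they were TNFRSF12A, the receptor for TWEAK (r = 0.996), ESYT2 (0.996), CLIC4 (0.995), WASF2 (0.993) and MYO5B (0.993). TNFRSF12A was at 476.5 TPM in control, 221 TPM with ESC CM and 269 TPM with CRC-MPS CM. Among the members themselves IL6R and JAK1 had the highest correlation (r = 0.987), while SOCS3 and SERPINA3 were at 0.797 and JAK1 and SOCS3 at -0.489.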

How the data were processed

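RNA of HT29 cells was compared in 9 libraries, 3 a group. As tools, STAR (2.6.1d), kallisto (0.46.0) and DESeq2 appear in the submitters' processing notes, with hg38 as the genome build but with no order. The values per library deposited by the authors are TPM, as the scale of their sums over listed genes shows. The authors' deposited mean over 6 libraries is a normalized signal (counts divided by size factors). The authors' own fold changes, standard errors, statistics and p-values were not used. Blank rows (631, in the list that compared ESC CM with control) were left out.

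Each table was tested apart, in 6 libraries, with limma 3.58.1 (R 4.3.3) on log2(TPM + 1). Because tables hold only genes with p under 0.05, Benjamini-Hochberg adjustment took 20000 genes as the number of tests. A call needed an adjusted p under 0.05 and a ratio of means over 1.5. The fit was first tested on simulated data with known changes. Levels set beside each other over 9 libraries came from the table for CRC-MPS CM against control, then ESC CM against control, then CRC-MPS CM against ESC CM, whichever first listed the gene, and a library's values differed between tables by a median of 0.0451% to 0.567%. Ratios, tests, and means of pathway genes came from the table of the comparison. Alternatives were other pseudocounts, folds, filters, scaling and numbers of tests, the replicate block and each library left out.

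Named genes were the members, up to 4 called genes with the largest change per list and comparison, of which examples are given, and the 5 genes closest in pattern to SOCS3, SERPINA3 and IL6R. Members and lists were chosen with earlier results of these data known. Gene names turned into dates by a spreadsheet (4, 14 and 13 in the tables for CRC-MPS CM against ESC CM, CRC-MPS CM against control and ESC CM against control) were never named, and some genes that the rule selects are not reported here. Python 3.11.15, pandas 2.3.3 and numpy 2.4.6 were used.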

Additional observations from a re-analysis of the deposited data

How the results depend on the processing

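No member changed direction under any alternative. Of 252 alternative values of the members, 244 kept their side of the p threshold, 4 lost it and 4 gained it. Of 679 alternative values of the named pathway genes, 641 kept their side, 32 lost it (IL27RA, IL11RA, CISH, CP and LCN2), 6 gained it (KLF4, ICAM1, IL1R1 and CFB between both CM) and 0 reversed. Between both CM 41 genes were called, and 252 when adjusted over the listed genes only, 15 when adjusted over 60000 genes and 20 at a fold of 2. Adjusted over the listed genes only, IL6ST (adjusted p = 0.0379 by limma), STAT3 (0.0275) and PIM1 (0.0204) also passed the p threshold there but stayed under a 1.5-fold ratio. With a pseudocount of 5, 1 member was called there, since SOCS3 had a difference of 0.32 and a limma adjusted p of 0.0836. Leaving out 1 library gave 8 to 116 genes and 0 to 2 members between both CM, with 116 genes without CRC-MPS CM replicate 1, 13 without replicate 2 and 8 without replicate 3, and 21, 13 and 18 without ESC CM replicates 1, 2 and 3. Against control, CRC-MPS CM gave 4930 called genes, 8185 with no minimum fold and 2478 at a fold of 2, where 2 of 4 members stayed called, and 4607 to 4956 genes and 3 to 4 members without 1 library. ESC CM gave 4652 called genes against control, 8363 with no minimum fold and 2253 at a fold of 2, where 1 of 3 members stayed called, and 4316 to 4576 genes and 2 to 3 members without 1 library. Where a replicate was left out, the smaller group was assumed to vary like the other. The causes of these shifts, other than the changed limits and sample numbers, were not tested.

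Deviations of same-numbered libraries correlated at -0.356 to 0.179, which with 3 libraries a group can neither show nor exclude a pairing. A fit with the replicate number as a block called 14 genes between both CM and changed no member's call (limma adjusted p = 0.0469 for SOCS3 and 0.0405 for SERPINA3 between both CM). The unknown read depth of single libraries limits what can be said of SOCS3, which was at no more than 2.00 TPM in any library. Its mean normalized count was 54.4 over the libraries of both CM and 47.3 over those of CRC-MPS CM and control.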
